A study of Bos taurus with 30 samples.

Results

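Accessible sites that first appeared in bovine morula and were found again in the inner cell mass (ICM) and in embryonic stem cells (ESC) are described here. They were chosen from ATAC-seq peak lists, in which a peak marks DNA that a transposase cut more often than the sequence around it. Peaks of the 3 control replicates of a stage were merged, and the merged stretch counted as a region of that stage if 2 or more replicates had a peak in it. Members were the morula regions that shared no base with a region of GV oocyte, 2-cell, 4-cell or 8-cell libraries and shared at least 1 base with both an ICM and an ESC region. The rule kept 5762 of 161497 morula regions (3.57%), out of 250139 regions of any of the 7 control stages. Because peak calls of these control libraries chose the members, their presence in morula, ICM and ESC and their absence before morula in these libraries are given as descriptions. Tests used TBE libraries or libraries held out of the choice.

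Each group had 3 libraries, those of oocytes and embryos from pooled cells of separate collections and those of ESC from cultured lines. Control groups were germinal vesicle (GV) oocytes and in vitro fertilised embryos at the 2-cell, 4-cell (day 2 after insemination), 8-cell (day 3) and morula (day 5) stages, ICM isolated from day 7 blastocysts by immunosurgery, and ESC. Embryos were sired by a single Holstein bull. The ESC are lines derived from bovine ICM and kept with FGF2 and IWR-1 on irradiated mouse embryonic fibroblasts, from which they were separated by plating before the assay. Transcription blocked embryos (TBE) were 2-, 4- and 8-cell embryos kept from day 1 in medium with 50 µg/ml α-amanitin, which blocks RNA polymerase II. They were a portion of the same collections as the untreated embryos of their stage, grown alongside them. No TBE library of a later stage was analysed here, since blocked embryos do not develop to morula. A pool can hold embryos at somewhat different steps, and a region covered in fewer cells cannot be told apart from one that is less accessible in each cell.

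In the cow, the major activation of the embryonic genome takes place around the 8-cell stage. Morula follows it, the stage at which cells compact and outer cells begin to take the path to trophectoderm, while inner cells give rise to the ICM and later to the epiblast, the source of ESC. Accessible chromatin marks promoters, enhancers and other sites where transcription factors displace nucleosomes.

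Of the 161497 morula regions, 74382 overlapped no region of an earlier stage, and the members were 7.75% of these. A further 18475 (24.8%) were shared with ICM only, 5946 (7.99%) with ESC only, and 44199 (59.4%) with neither. These 3 classes met the same condition before morula and serve as comparison. ESC regions overlapped 23.8% of the morula-born regions that were in ICM and 11.9% of those that were not. Of the 44709 morula regions that were in ICM and had been open at an earlier stage, 57.4% overlapped an ESC region.

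Members recurred among morula replicates about as often as regions shared with ICM only (73.1% in all 3) and more often than those in neither (46.0%). Peaks of all 3 morula libraries overlapped 4258 members (73.9%), against 55% of all morula-born regions and 69.1% of all morula regions, and peaks of 2 libraries overlapped the other 1504. In all 9 libraries of morula, ICM and ESC a peak was present at 1319 members (22.9%), a share of 1.77% in all morula-born regions and 9.61% in all morula regions, which follows from the rule. Members had a median length of 632 bp, with quartiles of 361 and 1073 bp and a range of 200 to 3761 bp. The median length was 625 bp for regions shared with ICM only, 429 bp for those shared with ESC only and 436 bp for those in neither. ICM regions covered a median of 87.5% of a member's length and ESC regions 78.6%, and 82.6% and 72.0% of the members were covered over 50% of their length or more.

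The threshold on replicates cut through a continuous range of peak heights. Peak height is given here as fold enrichment, the pileup of tags in a peak divided by the background around it, with 1 added to each. There were 3150 members with a peak in exactly 2 ESC libraries, and the median fold enrichment of those peaks was 4.08. Among regions left out, 3646 were in ICM and had a peak in a single ESC library, with a median of 3.58. On the side of the earlier stages, 1999 members had a peak in 1 of the 3 8-cell control libraries, with a median fold enrichment of 3.42. A set of 2121 regions that were otherwise alike was left out because peaks of 2 8-cell libraries formed a region, with a median of 3.76. Another 51 members had peaks in 2 8-cell libraries that formed no region, since peaks of different replicates lay on separate parts of the morula region.

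Peaks at members were present in 79.8%, 99.3% and 94.8% of them in morula replicates 1, 2 and 3. The shares in ICM libraries were 84.1%, 82.8% and 94.8%. The shares in ESC libraries were 47.2%, 98.3% and 93.2%, so that ESC replicate 1 stood below every other library of the 3 stages. That library had the shortest list of the 9, with 39333 peaks, and the lowest background level, 0.175. The background level is the pileup that the peak caller took as the genome-wide background, and it grows in proportion to sequencing depth. It was 0.656 and 0.404 in ESC replicates 2 and 3, between 0.438 and 1.06 in ICM and between 0.452 and 0.927 in morula. Over all 30 lists it could be solved for 28 and ran from 0.123 to 3.82, and the control lists held 1002 to 207459 peaks. Without ESC replicate 1, with ESC regions taken from both other replicates, 5462 regions met the rule.

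**Figure D1:**
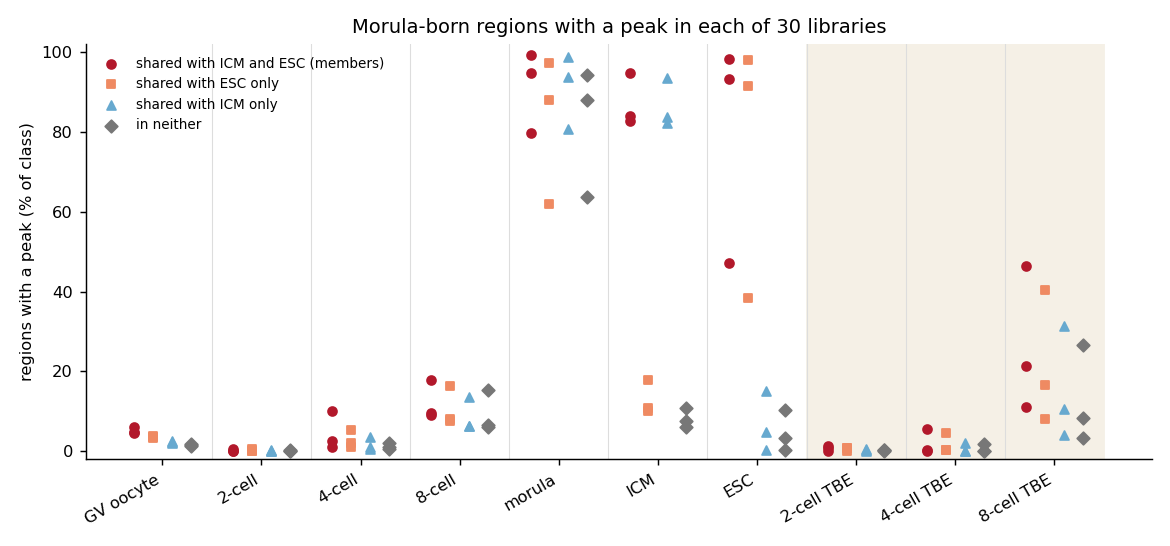
Percentage of morula-born regions with a peak in each library (y axis) for 10 groups (x axis, TBE groups shaded), with 1 point per library and class of region. Members (red circles) are near or above 80% in 8 of the 9 morula, ICM and ESC libraries and at 11.1% to 46.5% in 8-cell TBE libraries, above the other classes there.

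To learn how often such a site recurs in a library that did not choose it, each library was held out in turn and members were taken anew without it, with peaks of both other replicates required at its stage. A peak was then present in the held-out library at 78.5%, 99.0% and 93.4% of members for morula replicates 1, 2 and 3. The values for ICM were 79.8%, 78.6% and 92.5%, and those for ESC were 44.5%, 97.7% and 89.0%. The ranges of the 3 stages overlapped. Means were 90.3% ± 10.6 (SD, n = 3) for morula, 83.6% ± 7.73 for ICM and 77.1% ± 28.5 for ESC. No pair of stages differed beyond the spread of libraries in exact permutation tests, two-sided, for which 0.1 is the smallest possible p (p = 0.5 for morula and ICM, p = 0.6 for morula and ESC, p = 0.9 for ICM and ESC, each 0.9 after Benjamini-Hochberg adjustment over 3 pairs).

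The order of the stages depended on the length of the lists. When every held-out list was cut to its 39333 strongest peaks by −log10 p, the shares were 21.6%, 36.7% and 28.3% in morula, 46.3%, 48.6% and 53.7% in ICM and 44.5%, 71.8% and 63.9% in ESC. All 3 morula libraries then lay below all ICM and ESC libraries, while ICM and ESC overlapped. The same number of peaks was a smaller part of the morula lists, which held 142231 to 207459 peaks, than of the ICM lists, which held 84773 to 116791, and it was the whole list of ESC replicate 1. The shares on lists of equal length are therefore given as a description.

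Peaks at members were of middle height in morula and of similar height in the later lists. The median fold enrichment of members with a peak was 4.32, 5.02 and 4.68 in morula replicates 1, 2 and 3. It was 4.58, 4.25 and 4.51 in ICM and 4.31, 4.95 and 4.27 in ESC. Within each list, the median member peak lay at percentile 52.0 to 69.6 in morula, 56.9 to 64.1 in ICM and 49.2 to 70.9 in ESC. In morula libraries the members exceeded the regions found in neither ICM nor ESC by 0.77 ± 0.29 in median fold enrichment (SD of the difference, n = 3), and were higher in 3 of 3 libraries. Against regions shared with ICM only the difference was 0.15 ± 0.18, higher in 2 of 3 libraries. Against regions shared with ESC only it was 0.65 ± 0.16. Regions opened at the 8-cell stage and kept in morula, ICM and ESC, of which there were 7734, stood above the members by 0.59 to 0.77 in every morula library. These differences are descriptions, since the same morula libraries chose the regions.

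Members differed among themselves in the stage at which they were highest. For this, the fold enrichment of a peak was divided by the median of its list, with a missing peak set to 0, and averaged over the 3 libraries of a stage. By this relative level 2342 members (40.6%) were highest in morula, 1723 (29.9%) in ICM and 1697 (29.5%) in ESC. The median relative level was 1.05 in morula, 0.99 in ICM and 0.86 in ESC, where replicate 1 entered as 0 at 52.8% of members. Across the 5762 members, which share libraries and their depth, Spearman's rho of the relative level was 0.42 between morula and ICM, 0.16 between morula and ESC and 0.18 between ICM and ESC. Length was hardly related to the level, with rho of 0.03 in morula, 0.05 in ICM and −0.11 in ESC.

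Before morula, traces of members were present in single libraries. No peak of the 12 control libraries from GV oocyte to 8-cell fell on 2941 members (51.0%). The remaining 2821 members (49.0%) had at least 1 such peak, against 34.8% of all morula-born regions and 70% of all morula regions, and 2002 of them had a peak in 1 library only. The shares of members with a peak were 6.16%, 4.84% and 4.48% in GV oocyte replicates 1, 2 and 3 and 0.087%, 0.069% and 0.59% at the 2-cell stage. They were 10.0%, 2.67% and 1.02% at the 4-cell and 9.58%, 9.11% and 17.8% at the 8-cell stage. The 2-cell lists were short, with 1002, 1262 and 6440 peaks, so that little can be said about that stage.

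Held-out GV oocyte libraries had a peak at members more often than at the other classes of morula-born regions. The shares for members were 11.8%, 9.98% and 8.85% in GV replicates 1, 2 and 3. Regions shared with ESC only had 6.29%, 6.07% and 6.35%, regions shared with ICM only 3.66%, 4.23% and 4.21%, and regions in neither 2.22%, 2.76% and 2.92%. The lowest value of the members lay above the highest of each other class, and the order of the 4 classes was the same in 3 of 3 GV libraries. The mean difference was 3.98 ± 1.53 percentage points against ESC only, 6.19 ± 1.81 against ICM only and 7.59 ± 1.88 against neither, each with an exact sign-flip p = 0.25, the smallest possible (0.25 after adjustment over 9 comparisons). The same order held in 3 of 3 held-out 4-cell libraries, where members had 11.4%, 4.00% and 1.55%. It held in none of the held-out 8-cell libraries, where members were highest but regions in neither stood above those shared with ICM only. The held-out GV sets numbered 6048 to 6140 and hold regions that the full rule left out for GV peaks. Median lengths were 632 bp for members, 625 bp for ICM only, 429 bp for ESC only and 436 bp for neither. A longer region can meet more peaks, and no bins of length were made for these libraries. With no library held out, GV replicates 1, 2 and 3 had a peak at 15.8%, 15.5% and 15.8% of all morula regions. Regions opened at the 8-cell stage and kept later had 12.6%, 7.33% and 8.91%, above the 6.16%, 4.84% and 4.48% of members. GV peaks were therefore not particular to the members. Held-out shares were not taken for these other sets.

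TBE libraries played no part in the choice of members, and at the 8-cell stage many members had a peak in them. At least 1 of the 3 8-cell TBE libraries had a peak at 2929 members (50.8%), against 33.2% of all morula-born regions and 46.8% of all morula regions, most of which were open at an earlier stage. Peaks in at least 2 of these libraries were found at 1212 members (21.03%, against 9.89% and 25.8%) and in all 3 at 400 members (6.94%, against 2.4% and 15.1%). By library, the members with a peak were 21.3%, 46.5% and 11.1% in 8-cell TBE replicates 1, 2 and 3. All morula-born regions had 10.6%, 30.4% and 4.47% and all morula regions 26.1%, 44% and 17.6%. Earlier TBE libraries rarely had a peak at members. In the 4-cell TBE libraries a peak was present at 336 members (5.83%, against 2.58% and 11.8%) and in the 2-cell TBE libraries at 118 (2.05%, against 0.996% and 6.87%). Their lists were shorter than those of 8-cell TBE, which limits these shares. They held 32260, 4166 and 3094 peaks at the 4-cell and 925, 8118 and 11083 at the 2-cell stage.

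The 8-cell TBE shares followed the depth of the libraries. The background level was 1.24, 3.82 and 0.347 in replicates 1, 2 and 3, and the lists held 90890, 247513 and 50090 peaks. The highest share was in the deepest library and the lowest in the shallowest. The median fold enrichment of member peaks was 3.37, 2.52 and 3.60, at percentiles 49.9, 53.4 and 41.7 of all peaks in the 3 lists.

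Within each 8-cell TBE library, members had peaks more often than the other morula-born classes. Regions shared with ESC only had 16.7%, 40.4% and 8.17% in replicates 1, 2 and 3, regions shared with ICM only 10.6%, 31.4% and 4.04%, and regions in neither 8.42%, 26.5% and 3.29%. The order of the 4 classes was the same in 3 of 3 libraries. Members exceeded regions in neither by 13.5 ± 6.14 percentage points (SD of the difference, n = 3), regions shared with ICM only by 10.9 ± 4.02 and regions shared with ESC only by 4.51 ± 1.59, each with an exact sign-flip p = 0.25, the smallest possible. Over the 9 TBE libraries of the 3 stages, members were above regions in neither in 9 of 9, by 5.10 ± 7.12 points (exact sign-flip p = 0.0039, 0.021 after Benjamini-Hochberg adjustment over 16 comparisons). The difference ran from 0.063 to 20.0 points and was 1.33 on average in the 4-cell TBE libraries. Some lists were near the floor: 2-cell TBE replicate 1 had a peak at 4 members and at 3 regions in neither. The 9 libraries were read at the same regions, and the test took libraries of 3 stages as alike. Bins of length were made for the 8-cell TBE libraries only. Members were also above regions shared with ICM only in 9 of 9 libraries, by 4.15 ± 5.55 points (exact p = 0.0039, adjusted 0.021), and above regions shared with ESC only in 7 of 9, by 1.66 ± 2.30 points (exact p = 0.027, adjusted 0.11). The 7734 regions opened at the 8-cell stage and kept later were higher still, at 49.4%, 70.8% and 34.0% in the 8-cell TBE libraries.

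The gap between members and regions in neither was present in every bin of length and in every group by mean fold enrichment in morula. In regions of 200 to 400 bp members were higher by 14.4 points on average over the 3 8-cell TBE libraries, in those of 400 to 700 bp by 10.6, in those of 700 to 1100 bp by 13.0 and in longer ones by 11.9, and they were higher in 3 of 3 libraries in each bin. When regions were grouped by their mean fold enrichment in morula, the mean 8-cell TBE share of members was 29.0% below 3, 29.0% from 3 to 4, 26.3% from 4 to 5 and 23.3% above. Regions in neither had 13.6%, 13.0%, 11.5% and 10.6% in the same groups. Regions shared with ESC only were in between, at 22.8%, 22.4%, 20.7% and 18.7%.

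**Figure D2:**
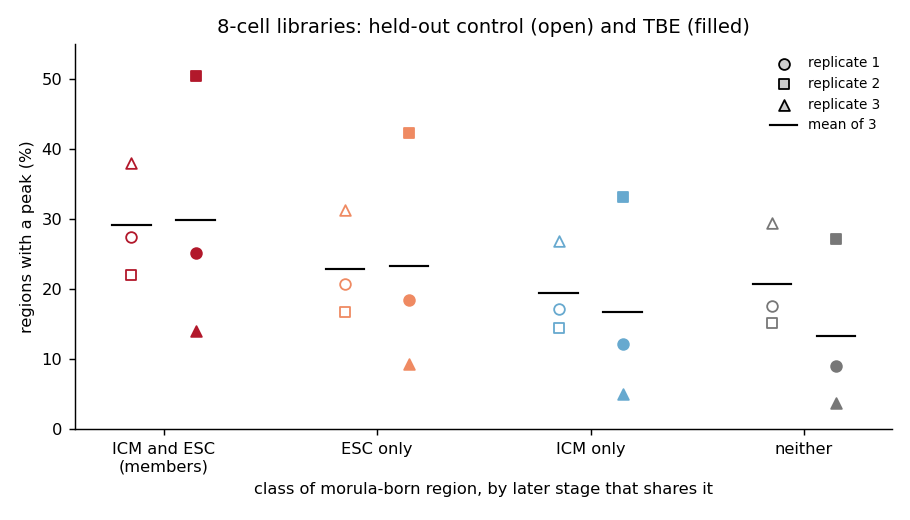
Percentage of morula-born regions with a peak (y axis) in 8-cell control libraries held out of the definition (open symbols) and in 8-cell TBE libraries (filled symbols), for 4 classes of region (x axis), with the shape giving the replicate and bars the mean of 3. In the sets taken without the held-out library, members average 29.2% in control and 29.9% in TBE, while regions in neither ICM nor ESC average 20.7% and 13.3%.

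Whether blocked embryos differed from untreated ones at these sites was asked with 8-cell control libraries held out of the definition. Members taken without the held-out library numbered 6728 to 7661. These sets hold regions that the full rule left out for peaks in the held-out library. A peak was present at 27.4%, 22.0% and 38.0% of the regions of these sets in control replicates 1, 2 and 3. In TBE replicates 1, 2 and 3 it was present at 25.1%, 50.5% and 14.0%, each the mean over the 3 sets. The control values lay inside the range of the TBE values. Means were 29.2% ± 8.13 in control and 29.9% ± 18.7 in TBE (SD, n = 3 each), a difference of 0.70 points (exact two-sided permutation p = 1, smallest possible p = 0.1). Without TBE replicate 2 the difference was −9.60 points (exact p = 0.4). At the 5762 members of the full rule the 8-cell control shares were 9.58%, 9.11% and 17.8%. Sites were left out for their peaks in control and none for peaks in TBE, so this test cannot tell the block from the choice. At the 4-cell stage the shares were 11.4%, 4.00% and 1.55% in control and 5.73%, 0.297% and 0.183% in TBE (exact permutation p = 0.5). At the 2-cell stage they were 0.104%, 0.087% and 0.590% in control and 0.069%, 0.706% and 1.34% in TBE (exact permutation p = 0.4). TBE minus control did not differ detectably between the 8- and 4-cell stages (difference of 4.28 points, exact permutation p = 0.73). The other pairs of stages gave exact permutation p = 0.99 and 0.29. The held-out sets numbered 5795 to 5851 at the 4-cell and 5762 to 5763 at the 2-cell stage, so the choice bore unequally on the stages. The 4-cell lists held 42012, 22983 and 14355 peaks in control and 32260, 4166 and 3094 in TBE. These tests therefore cannot tell the block from the choice or from list length.

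The gap between members and regions in neither was wider in TBE than in control libraries. In held-out 8-cell control libraries, members exceeded those regions by 9.78, 6.92 and 8.64 points in replicates 1, 2 and 3. In 8-cell TBE libraries the excess was 16.1, 23.3 and 10.3 points, and the groups did not overlap (means 8.45 ± 1.44 and 16.6 ± 6.48, exact two-sided permutation p = 0.1, the smallest possible). Both classes were chosen for the lack of a region in the other 8-cell control libraries, and TBE libraries took no part. The choice bears on the gap in control only, so this test cannot tell the block from the choice. With all 3 control libraries in the rule, members had 9.58%, 9.11% and 17.8% in control and regions in neither 6.45%, 6.12% and 15.5%. Against regions shared with ICM only, the excess was 10.3, 7.63 and 11.2 points in control and 13.0, 17.3 and 8.93 in TBE, and the groups overlapped (exact permutation p = 0.3). Against regions shared with ESC only it was 6.63, 5.25 and 6.75 points in control and 6.71, 8.21 and 4.73 in TBE (exact permutation p = 0.9).

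With lists of equal length the control and TBE libraries no longer overlapped. When all 6 8-cell lists were cut to their 50090 strongest peaks, members had a peak in 4.80%, 2.75% and 5.35% of cases in held-out control and in 15.4%, 13.3% and 14.0% in TBE, a difference of 9.96 points (exact permutation p = 0.1, the smallest possible). The full lists held 125253, 128958 and 156569 peaks in control and 90890, 247513 and 50090 in TBE, so TBE replicate 3 was not cut. By fold enrichment, the median member peak lay at percentile 23.7 to 34.9 of the full control lists and 41.7 to 53.4 of the full TBE lists. The separation is therefore given as a description. The rule bears on this comparison too, since members were chosen for the lack of a region in the other 8-cell control libraries, while no site was left out for its peaks in TBE. The excess over regions in neither, which met the same condition, was 8.16 points larger in TBE than in control on the equal lists (exact permutation p = 0.1). That condition bears on both classes in control only, so the larger excess cannot be told apart from the choice of regions.

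**Figure D3:**
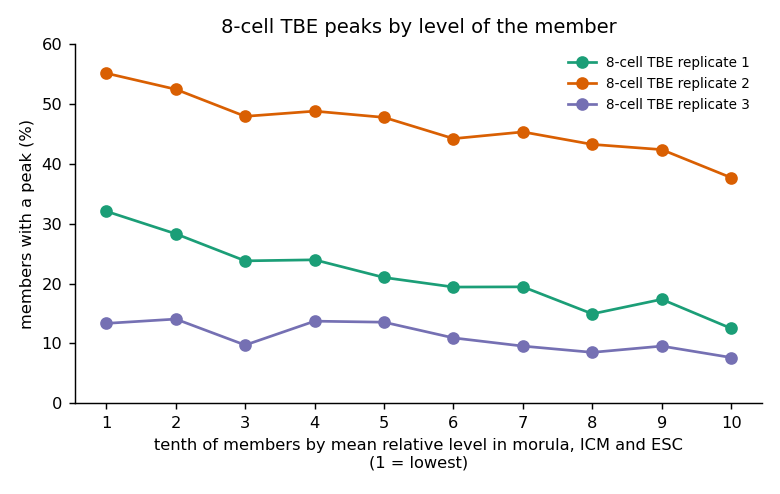
Percentage of members with a peak in each of the 3 8-cell TBE libraries (y axis), for 10 groups of equal size ordered by the members' mean relative level in morula, ICM and ESC (x axis, 1 the lowest). From the lowest to the highest group the share goes from 32.1% to 12.5% in replicate 1, from 55.1% to 37.7% in replicate 2 and from 13.3% to 7.64% in replicate 3.

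Members with 8-cell TBE peaks were not the strongest sites of morula, ICM and ESC. Among the 10% of members with the lowest mean relative level over these stages, 32.1%, 55.1% and 13.3% had a peak in TBE replicates 1, 2 and 3. Among the highest 10%, 12.5%, 37.7% and 7.64% had one, lower in each of the 3 libraries. This was not particular to members. By mean fold enrichment in morula alone, the mean 8-cell TBE share was also lower in the highest than in the lowest group of the other classes. It was 10.6% against 13.6% in neither, 13.0% against 16.8% in ICM only and 18.7% against 22.8% in ESC only. The 400 members with peaks in all 3 8-cell TBE libraries had median relative levels of 0.94 in morula, 0.85 in ICM and 0.78 in ESC. The 2833 members with none had 1.07, 1.03 and 0.87. A peak in at least 1 GV oocyte library was present at 37.3% of the former and 8.15% of the latter, and a peak in at least 1 4-cell control library at 41.3% and 5.22%. A peak in an 8-cell control library was present at 57.3% and 26.5%. Other morula-born regions were not split in this way, so these shares are no mark of the members.

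There were 1835 members (31.8%) with no peak in any of the 12 earlier control libraries or the 9 TBE libraries, and 417 of these had a peak in all 9 morula, ICM and ESC libraries. The same share was not taken over all morula-born regions. Of those, 34.8% had an earlier control peak, against 49.0% of members, and 33.2% an 8-cell TBE peak, against 50.8%. The counts are therefore no mark of the members. The sites with the largest mean fold enrichment are given next, with positions on ARS-UCD1.2 as in the peak lists. Genes near them were not analysed here.

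The strongest of the members with a peak in all 9 libraries was chr3:53483580-53483991, 412 bp long. Its fold enrichment was 10.9, 10.8 and 9.54 in morula, 8.25, 10.1 and 10.8 in ICM and 8.89, 10.1 and 9.61 in ESC replicates 1, 2 and 3. Of the 12 earlier control libraries only 8-cell replicate 1 had a peak there, at 3.70, and no TBE library had one. The second was chr2:86149876-86150878, 1003 bp long. Its values were 10.6, 9.60 and 10.5 in morula, 8.12, 10.7 and 8.43 in ICM and 8.55, 10.5 and 8.95 in ESC. No earlier control library and no TBE library had a peak there, and the nearest region of an earlier stage was 12378 bp away. The third, chr29:37629660-37630175, was the highest in morula, with 10.4, 12.2 and 11.8, and lower in ICM, with 8.40, 7.01 and 9.42. In ESC it had 6.19, 11.6 and 8.50, and its trace before morula was a peak of 3.17 in GV oocyte replicate 1.

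The next 3 sites were chr1:29118232-29118646, chr24:8271389-8271774 and chr13:70570709-70571126. Their fold enrichment over the 9 libraries was 9.28 ± 1.45, 9.12 ± 1.43 and 9.03 ± 0.81 (SD, n = 9). The chromosome 1 site had no peak before morula, and the other two had a single one each, of 3.97 in 8-cell replicate 3 and 3.10 in 8-cell replicate 2. None of the 6 sites had a peak in a TBE library, where 48.0% of all members had none. The sites on chromosomes 2 and 1 were also the strongest of the 417 members open in all 9 later libraries and silent before, followed by chr10:76830838-76831545 with 8.95 ± 1.69.

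The 3 sites with the largest mean fold enrichment in 8-cell TBE were chosen for those values. At chr20:61070370-61070702 it was 6.86, 6.22 and 7.65 in 8-cell TBE replicates 1, 2 and 3, and this site also had peaks of 4.74 in GV oocyte replicate 3, 4.79 in 4-cell replicate 3 and 5.25 in 8-cell replicate 3. Its values were 6.60, 8.81 and 5.16 in morula, 5.98, 4.18 and 5.18 in ICM and 5.60, 7.25 and 7.76 in ESC. At chr7:37959355-37959659 the 8-cell TBE values were 4.94, 5.38 and 6.57. Earlier control libraries had peaks of 4.79 in 4-cell replicate 1 and 3.33 in 8-cell replicate 2 at this site. Later it had no peak in morula replicate 1 or ESC replicate 1, 6.72 and 6.92 in morula replicates 2 and 3, 6.09, 3.92 and 6.68 in ICM and 6.16 and 5.38 in ESC replicates 2 and 3. At chr9:69290274-69290557 they were 6.15, 4.00 and 6.43, with a peak of 3.97 in GV oocyte replicate 3. Later values there were 3.73, 8.21 and 6.36 in morula, 5.33, 5.78 and 6.05 in ICM and 3.51 and 4.95 in ESC replicates 2 and 3, with no peak in ESC replicate 1. These 3 sites were 333, 305 and 284 bp long, and each had at least 1 peak in an earlier control library.

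**Figure D4:**
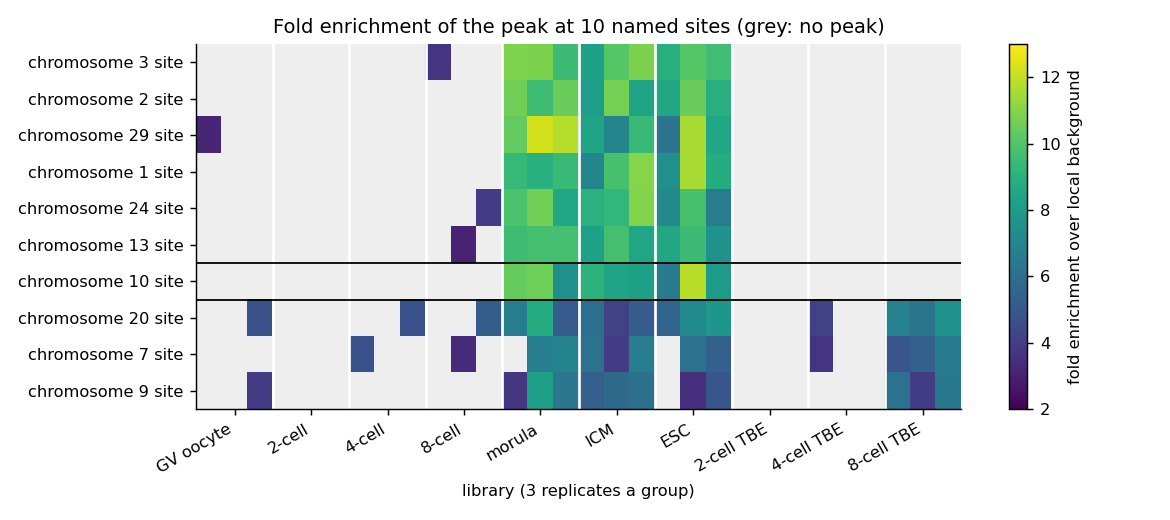
Fold enrichment over the local background (colour) of the peak at 10 sites (rows) in 30 libraries (columns, 3 replicates a group), with grey where a library had no peak. The 6 strongest members are above the first line and have no TBE peak. The 3 below the second line are the strongest in 8-cell TBE, where their values lie between 4.00 and 7.65.

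Distances from members to sites opened earlier were close to those of all morula-born regions. The nearest region of an earlier stage was at a median distance of 7668 bp, with quartiles of 3439 and 17068 bp, against 7208 bp for all morula-born regions. Within 1 kb of an earlier region lay 264 members (4.58%, against 4.71% of all morula-born regions), and 227 (3.94%, against 3.67%) were more than 50 kb away. The median distance from a member to the next was 126406 bp, and 319 members (5.54%) had another within 10 kb. Of all 74382 morula-born regions, 52.2% had another morula-born region within 10 kb. Of the 5946 regions shared with ESC only, a class of similar size, 3.83% had another of their class, at a median of 138600 bp. These values depend on the size of the class. The densest windows of 100 kb held 5 members each, at chr22:43207781-43270450, where 13 morula regions lay, and at chr4:24879018-24967614, where 10 did. Both were picked after their values had been seen.

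**Figure D5:**
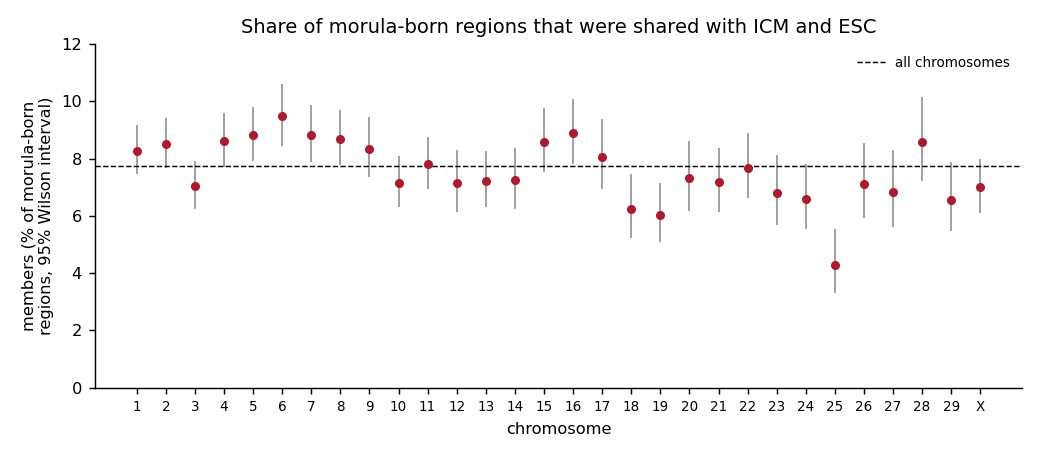
Members as a percentage of the morula-born regions of each chromosome (y axis) for 29 autosomes and X (x axis), with 95% Wilson intervals that cover counting error only and a dashed line at 7.75% for all. Chromosome 25 is lowest at 4.29% and chromosome 6 highest at 9.47%.

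Autosomes held 5553 members, chromosome X 194 and unplaced scaffolds 15. Members were 4.29% of the morula-born regions of chromosome 25 (56 of 1304, 95% Wilson interval 3.32% to 5.54%), 6.04% on chromosome 19 (5.09% to 7.15%) and 6.24% on chromosome 18 (5.22% to 7.44%). They were 9.47% on chromosome 6 (265 of 2798, 8.44% to 10.6%), 8.88% on chromosome 16 and 8.83% on chromosome 5. Chromosome X, at 6.99% (6.10% to 8.00%), had an interval that held the 7.75% of all chromosomes. The highest densities of morula regions, 767, 743, 727 and 724 per 10 Mb up to the last peak, were those of chromosomes 19, 25, 23 and 18. Over the 30 chromosomes Spearman's rho between this density and the share of members was −0.41. In the last 5 Mb of the autosomes lay 5.58% of members, against 7.13% of all morula-born regions and 7.74% of those in neither ICM nor ESC, and in the first 5 Mb 4.61%, against 4.68%.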

How the data were processed

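Peak lists of 30 ATAC-seq libraries (3 for each of 10 groups) were used. Per the labels, the authors used Trim Galore, cutadapt 0.4.0, BWA 0.7.17, SAMtools 1.7, deepTools and MACS2 2.1.1 with ARS-UCD1.2, and the study's methods give removal of duplicates and of low-quality alignments and broad peaks at q 0.05. The deposited fold enrichment is the mean ratio of pileup to local background over a peak, with 1 added to both. It is thus not a plain ratio where the background is low. The deposited −log10 p and −log10 q values come from the same pileup. The deposited score is 10 times the −log10 q and was not used. The study describes sets called from reads that were pooled and then subsampled, whereas each list here is 1 replicate. Reads per list were not used here, and the depth of each list limits every share.

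Computations ran in scipy 1.17.1, pandas 2.3.3 and numpy 2.4.6 under Python 3.11.15, with figures drawn in matplotlib 3.10.9. An overlap needed 1 bp, and where several peaks of a list overlapped a region the highest was taken. Background levels were solved from at least 3 peaks whose fold enrichment and −log10 p gave a whole-number pileup (tolerance 0.0002 on −log10 p). On simulated data the rule and the interval functions gave 0 mismatches in 200 trials, and 4 of 4 background levels were recovered. Differences were tested over libraries with exact permutation or sign-flip tests. Regions along a genome are not independent, and intervals cover counting error only. Oocyte and embryo replicates came from separate collections. For ESC nothing used here says that replicates were separate cultures, so p-values there measure the spread between these libraries.

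Sites named were the 6 members with the largest mean fold enrichment over the 9 morula, ICM and ESC libraries among those with a peak in all 9, the 3 largest of these with no earlier control or TBE peak, and the 3 largest over the 8-cell TBE libraries among those with a peak in all 3. Members, classes and rules were chosen with earlier results of these data known. Alternatives were stricter peaks, equal numbers of top peaks, regions from any or all replicates, an overlap of 50%, autosomes only, leaving out replicates and a replicate block. Lists cut only where they were tested, bins of length and height, the excess of members over other regions, comparisons with regions shared with ESC only and in held-out GV oocyte and 4-cell libraries, and leaving out ESC replicate 1 were chosen after seeing the data. Genes, marker genes, motifs and sequences of the regions were not analysed here, since no annotation or genome of ARS-UCD1.2 was at hand.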

Additional observations from a re-analysis of the deposited data

How the results depend on the processing

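The number of members was 3235 with peaks of −log10 q of at least 3, 1174 with equal numbers of top peaks, 10234 with regions from any replicate and 2271 with regions from all 3 replicates, and 2046 to 5649 when replicate 1, 2 or 3 of every stage was left out. Without replicate 2 it was 2046 and without replicate 3 it was 2429. The share of morula-born regions that were members was 5.60% with the stricter q, 8.03% with equal numbers of top peaks, 10.2% from any replicate, 4.13% with all 3 replicates, 5.10% where overlaps covered 50% of the morula region and 3.95% to 7.40% without a replicate. The share in held-out libraries was 71.4% for morula and 60.8% for ICM with regions from any replicate, 69.9% for ICM with an overlap of 50%, and 28.9% for morula and 49.5% for ICM with tested lists of equal length.

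The difference between 8-cell TBE and held-out control libraries changed sign in 5 of 13 alternatives. It was −7.55 points with the stricter q, −12.7 with a fold enrichment of at least 3, −2.15 with regions from all 3 replicates and −9.60 without 8-cell TBE replicate 2, it was 18.8 with equal numbers of top peaks (exact p = 0.1), and it ran from −7.42 to 8.42 without replicate 1, 2 or 3 of every stage. Morula minus ICM turned to −5.55 points and morula minus ESC to −3.40 with equal numbers of top peaks, and these were −20.7 and −31.2 with tested lists of equal length, where ICM minus ESC was −10.5. The cause was not tested. The excess of members over regions in neither was larger in TBE than in control in 13 of 13 alternatives, by 2.55 to 18.0 points (exact p = 0.1 to 0.5). In each of them the choice of regions by 8-cell control peaks bore on the control side only. Members were above regions in neither in 8-cell TBE libraries in 22 of 22 alternatives, by 7.55 to 19.7 points, and over 9 TBE libraries in 10 of 10, by 2.85 to 8.02 points with exact p between 0.0039 and 0.031. In morula libraries they were higher by 0.30 to 1.07 in fold enrichment in 10 of 10. Of the 10 named sites 3 were still members with regions from any replicate and 7 to 10 otherwise.

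Control and TBE embryos shared collections, but nothing used here says that the replicate number marks the collection. Deviations of same-numbered 8-cell libraries from their group means correlated at −0.026 to 0.12 over 389625 regions, over 0.1 in 1 of 3 pairs, and those at the 2- and 4-cell stages in none. With the replicate block the 8-cell difference was 0.70 points (exact sign-flip p = 1). At the 4-cell stage TBE was lower in 3 of 3 numbered pairs (exact sign-flip p = 0.25, the smallest possible, against p = 0.5 without the block). The TBE list was also the shorter one in each of these pairs (32260, 4166 and 3094 peaks, against 42012, 22983 and 14355 in control). The block changed no call. Genic shares and motif shares were planned and not run for want of a genome and annotation of the build. Depth limits every absence: a member without a peak in a shallow list may have been missed.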
